A study of Mus musculus with 8 samples.

Results

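Non-cycling immature neutrophils were the cells of these cultures that were rich in secondary granule RNA but had little RNA of late neutrophil genes and little of mitotic genes. A cell was counted when Ngp and Camp together reached 150 UMIs per 10000, Retnlg, Mmp9 and Cxcr2 together stayed under 10, and Mki67, Top2a, Cenpf, Ube2c and Birc5 together stayed under 3, among cells in which 300 or more genes were detected and mitochondrial transcripts made up no more than 10% of UMIs. The rule found 1762 of 17384 retained cells: 903 of 9063 in the media control and 859 of 8321 with deoxycholic acid. Because those 10 genes chose the cells, their values below describe the choice and support nothing. Counts are of unique molecular identifiers (UMIs), the tags that mark single captured RNA molecules, and a level in CPM is the number of UMIs of a gene per 1000000 UMIs summed over the cells of a group.

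Both groups began as whole mouse bone marrow, seeded on irradiated AFT024 cells, a stromal fibroblast line from fetal mouse liver, in long-term culture medium that contained hydrocortisone, a glucocorticoid, in both. One group received medium alone. The other received deoxycholic acid, a secondary bile acid that gut bacteria make from a primary bile acid, at 35 µM for 1 week. Lineage-negative cells were then sorted, so the cells studied are those that carried too little of the stained lineage markers to be removed, and neither the stained antigens nor the strain, sex and age of the mice are named in the sources used here. The labels list 4 samples a group but the cell names carry only the group, so a group counts as a single library and cannot be tested; every interval below is an exact 95% interval for counting error only, and the difference between 2 libraries has no replicate check.

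Neutrophils pack their granules in sequence as they mature. Promyelocytes make the serine proteases and myeloperoxidase of primary granules, myelocytes and metamyelocytes make lactoferrin, cathelicidin and the other proteins of secondary granules as division ends, and gelatinase granules and secreted late proteins follow in band and segmented cells. The transcription factor C/EBP epsilon is required for secondary granule genes, with PU.1 and other C/EBP factors acting earlier and later along the lineage.

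C/EBP factors are known to act on secondary granule promoters, so the 150 bases before the RefSeq start of Ltf (lactoferrin), Ngp (neutrophilic granule protein) and Camp (cathelicidin) are shown, 5′ to 3′ on the gene's strand, as the promoters of the 3 genes that best stand for the granule content of these cells. The build is GRCm38.p6; the Ltf window is chr9:111019142-111019291 on the plus strand, the Ngp window chr9:110419658-110419807 on the plus strand and the Camp window chr9:109849457-109849606 on the minus strand. Capitals mark matches to TTGCNNAA, a C/EBP-type motif searched on both strands.
Ltf: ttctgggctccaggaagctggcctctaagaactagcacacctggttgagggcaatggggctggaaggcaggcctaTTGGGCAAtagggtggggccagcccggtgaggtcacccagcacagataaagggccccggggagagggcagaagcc
Ngp: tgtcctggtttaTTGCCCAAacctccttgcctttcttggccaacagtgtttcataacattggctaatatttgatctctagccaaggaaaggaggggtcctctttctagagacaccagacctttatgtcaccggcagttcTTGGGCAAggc
Camp: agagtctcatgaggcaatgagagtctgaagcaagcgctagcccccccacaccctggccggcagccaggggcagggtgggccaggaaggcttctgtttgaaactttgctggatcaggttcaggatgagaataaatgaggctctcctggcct
Ltf held 1 match, which began 75 bases before the start, and Ngp held 2, which began 138 and 11 bases before it. These letters were not in the Camp window, nor in those of Asprv1, Ceacam10 and Ifitm6. Of the other secondary granule genes searched, Anxa1 held 1 match and Lcn2, Cd177 and Chil3 held none. A match was present in 5.46% of 32851 RefSeq promoter windows of the same length, and a match is a description of letters, not a bound site.

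The marker genes stood where the label places these cells. Ltf, which the rule did not use, was at 3874 CPM (3835 to 3913) in the media control and 4564 CPM (4515 to 4613) with deoxycholic acid, against 771 and 900.3 CPM in the other retained cells, a fold of 5.02 and 5.07. Asprv1, a skin-type aspartic protease that neutrophils also make, was at 500.5 CPM (487 to 515) in the media control and 449 CPM (434 to 465) with deoxycholic acid, 5.53 and 6.01 times the other cells. Ceacam10, a secreted member of the carcinoembryonic antigen family, was 5.60 and 5.70 times, and Ifitm6, an interferon-induced transmembrane family member of myeloid cells, 4.90 and 4.65 times the other cells. All 4 markers outside the rule were therefore higher in these cells than in the pool of other retained cells, in both libraries. That pool was not split by stage. Ltf was not particular to these cells. Over both libraries it was at 6099 CPM in the 70 cells just outside the late limit and 5625 CPM in the 116 cells just inside it.

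Ngp and Camp separated the cells less, and cycling cells carried them too (25139.8 and 28202 CPM of Ngp). Ngp was 2.10 and 1.998 times, and Camp 1.92 and 1.82 times the level in the other retained cells. Elane, neutrophil elastase of primary granules, was at 0.203 and 0.221 times the other cells, and Mpo, myeloperoxidase, at 0.110 and 0.117 times. After each cell was thinned to 3000 UMIs, which left out 37 and 20 cells, Ltf was detected in 87.8% (85.4% to 89.9%) of 866 media control cells and 89.2% (86.9% to 91.2%) of 839 deoxycholic acid cells; before thinning these shares were 92.8% and 93.4%. The same measure gave 13.8% of 116 and 12.3% of 65 basophil reference cells, cells with at least 20 UMIs of Mcpt8 and Prss34 per 10000 that should lack Ltf. Cells that met the neutrophil rule were not excluded from this reference, and doublets were not removed. The source of the Ltf RNA in the reference was not tested. Median UMIs were 10520 and 8051 in the neutrophils and 7318 and 6428 in the basophil reference. Ifitm6, at 91.5% and 89.6% of thinned neutrophils against 19.8% and 20% of the reference, gave the same picture.

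Per cell the markers spread widely. The 5th percentile, the median and the 95th percentile of Ltf were 0, 38.6 and 107 UMIs per 10000 in the media control and 0, 48.04 and 118 with deoxycholic acid. For Camp they were 2.13, 144 and 418 in the media control and 2.11, 102 and 322 with deoxycholic acid, so the Camp distribution sat lower at its middle and top with the bile acid while the Ltf distribution sat higher. Asprv1, with 0, 3.49 and 21.7 and 0, 2.98 and 20.7, was at 0 in many cells of both libraries.

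**Figure D1:**
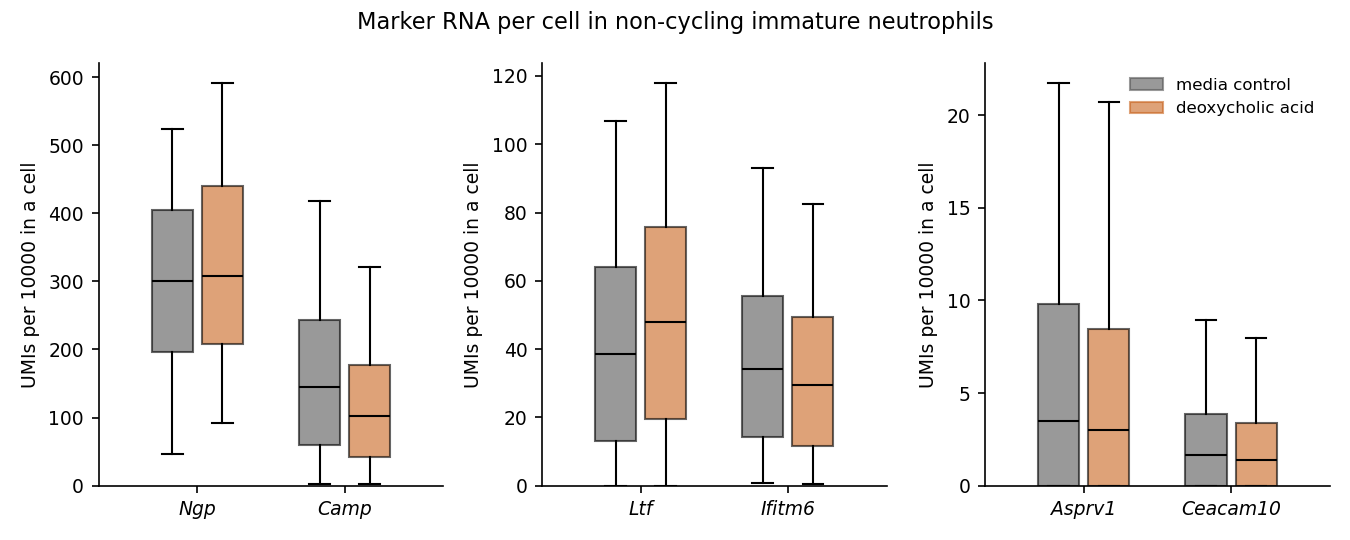
UMIs per 10000 in single non-cycling immature neutrophils for 6 marker genes (903 media control cells, grey; 859 deoxycholic acid cells, orange). Boxes span the 25th to 75th percentile with the median as a line, and whiskers reach the 5th and 95th percentile. The Camp boxes sit lower with deoxycholic acid (median 144 against 102) and the Ltf boxes higher (38.6 against 48.04).

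Markers of other cell types were at or near 0 in these cells, with a few exceptions. Summed CPM over 6 macrophage markers was 8.12 and 7.74 without and with deoxycholic acid, over 6 B cell markers 6.09 and 6.93, over 6 T and NK cell markers 0.101 and 0.136, over 6 stromal fibroblast markers 3.15 and 4.21 and over 6 class II and dendritic markers 3.55 and 2.72. Csf1r, Ly86, C1qa, C1qb, C1qc, Cd3e, Siglech, Flt3 and Dcn had no UMI in either. The monocyte list summed to 272 and 334 CPM, nearly all of it F13a1, the transglutaminase of clotting that monocytes make, with 267 and 325 CPM and a UMI in 66.8% and 69.3% of the cells. The eosinophil list summed to 69.3 and 66.2 CPM, of which Ear6, an eosinophil-associated ribonuclease, gave 57.4 and 59.6 CPM. Basophil and mast cell markers summed to 9.03 and 23.5 CPM; of the 129 Mcpt8 UMIs with deoxycholic acid, 85 lay in 1 cell. The stem and early progenitor list summed to 7.51 and 15.8 CPM, with Kit at 4.67 and 11.3 CPM. Over all retained cells the monocyte list summed to 203 and 244 CPM, the macrophage list to 4.49 and 5.26 and the fibroblast list to 2.57 and 3.05. These lists were thus higher in the neutrophils than over all retained cells. The class II, B cell, basophil, megakaryocyte and stem cell lists were lower in both libraries, and the other lists differed in direction between them. The part of these marker genes in the results below was not tested.

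The cells took nearly the same share of both libraries. They were 9.96% (9.35% to 10.6%) of retained media control cells and 10.3% (9.68% to 10.997%) of retained deoxycholic acid cells, a share ratio of 1.04 with an interval of 0.943 to 1.14. With the rule applied after every cell was thinned to 5000 UMIs the ratio was 0.941. Among all cells with Ngp and Camp at 150 or more, 17.3% and 18.0% met the rule. A further 73.0% and 73.2% reached the mitotic limit while under the late limit, and 9.72% and 8.85% reached the late limit at any mitotic sum. No barcode of these cells occurred in both libraries, and 25 barcodes did among all cells. The neutrophils held fewer UMIs than the average cell: medians of 10520 and 8051 stood beside 19168 and 14829 over all retained cells and 20012.5 and 15561 in the cycling cells with the same granule RNA, and the medians of detected genes were 2125 and 1838.

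The cells just inside and just outside each limit of the rule are described by their values, and the rule's own genes differ there by choice. Cells just inside the granule limit (150 to 180 UMIs per 10000, 97 cells) had Elane at 2802 CPM and Ltf at 1556 CPM, and cells just outside it (120 to 150, 113 cells) had 3859 and 1372 CPM. At the late limit, the 116 cells just inside had Ltf at 5625 CPM and Stfa2l1 at 1400.4 CPM, and the 70 just outside 6099 and 794 CPM. At the mitotic limit, the 148 cells just inside had Mki67 at 116 CPM and Elane at 1795 CPM, and the 121 just outside 156 and 2611 CPM.

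The cells varied in Ltf, and other genes varied with it. The pooled cells were divided into tertiles, 3 sets of equal size, at 25.4 and 59.5 Ltf UMIs per 10000, a grouping by 1 gene that gives ranges, not cell types, and each library was described separately. Plbd1, a phospholipase of neutrophil granules, was at 11.2, 84.5 and 125 CPM without and 17.4, 57.7 and 109.7 CPM with deoxycholic acid in the low, middle and high tertile. Ly6g, the surface antigen that defines mouse neutrophils, was at 16.9, 78.5 and 127 CPM without and 9.27, 58.2 and 92.7 CPM with deoxycholic acid. Both were lowest in the low tertile and highest in the high tertile in each library. Fmnl2, an actin-nucleating formin, Mmp25, a membrane-anchored matrix metalloproteinase, St3gal5, a ganglioside sialyltransferase, Slfn4, a Schlafen family member, Trp53inp2, an autophagy regulator, and the protease gene Ctsh were also among the 10 genes with the largest high-over-low ratio in the media control, with log2 ratios between 2.34 and 2.95 there and between 2.15 and 2.63 with deoxycholic acid. Ifit1bl2 and Mmp9, gelatinase B, completed that list; Mmp9 is 1 of the genes that the rule caps.

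The low tertile carried RNA of the stages before. Elane was at 1506, 129 and 52.2 CPM without and 1641, 156 and 53.6 CPM with deoxycholic acid. Prtn3, proteinase 3, was at 1380.2, 124 and 61.1 CPM without and 1228, 112 and 57.3 CPM with deoxycholic acid, and Ctsg, cathepsin G, had high-over-low log2 ratios of -4.21 and -4.12. The S phase genes Dut, which keeps uracil out of DNA, and Cdc6, a replication licensing factor, had ratios of -3.88 and -3.73 in the media control and -3.53 and -3.48 with deoxycholic acid. The kinetochore gene Spc24, Syce2 of the synaptonemal complex, Dmkn, a secreted protein first known from skin, and the metallothionein Mt2 were the other members of the lowest 10 beside Fn1, fibronectin, whose ratios were -5.10 and -2.09. Each of these genes was lower in the high tertile than in the low tertile in both libraries. Proliferation RNA of the low tertile is thus present in cells whose mitotic sum is under the limit of 3.

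Granule and membrane genes did not all follow Ltf to the same extent. Ceacam10 had high-over-low log2 ratios of 1.84 and 1.82 without and with deoxycholic acid, Asprv1 1.77 and 2.04, Cd177, a neutrophil surface glycoprotein, 1.47 and 1.38, Ifitm6 1.46 and 1.53, and Anxa1, annexin A1, 1.27 and 1.19. Camp (0.71 and 0.79), Lcn2, the siderophore-binding lipocalin (0.55 and 0.75), and Chil3, a chitinase-like protein (0.47 and 0.63), varied less. Cebpe, which encodes C/EBP epsilon, was nearly level, at 351, 315 and 305 CPM without and 325, 311 and 319 CPM with deoxycholic acid. Olfm4, olfactomedin 4, differed between the libraries in this respect: it was at 77.2, 156 and 178 CPM without and 14.1, 119 and 179 CPM with deoxycholic acid.

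Across all genes the order along Ltf was shared by the libraries. Of 4423 genes with enough counts, 306 (6.92%) were higher by a log2 ratio of at least 1 in the high tertile of the media control cells, of which 305 were on the same side of 0 with deoxycholic acid and 175 were past 1 there as well. A further 623 (14.1%) were lower by at least 1, of which 622 were on the same side of 0 and 545 past 1 with deoxycholic acid. The tertiles also differed in depth, with median UMIs of 12742.5 in the low and 9572 in the high tertile of the media control and 10326 and 7123.5 with deoxycholic acid; the part of depth in this order was not tested.

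**Figure D2:**
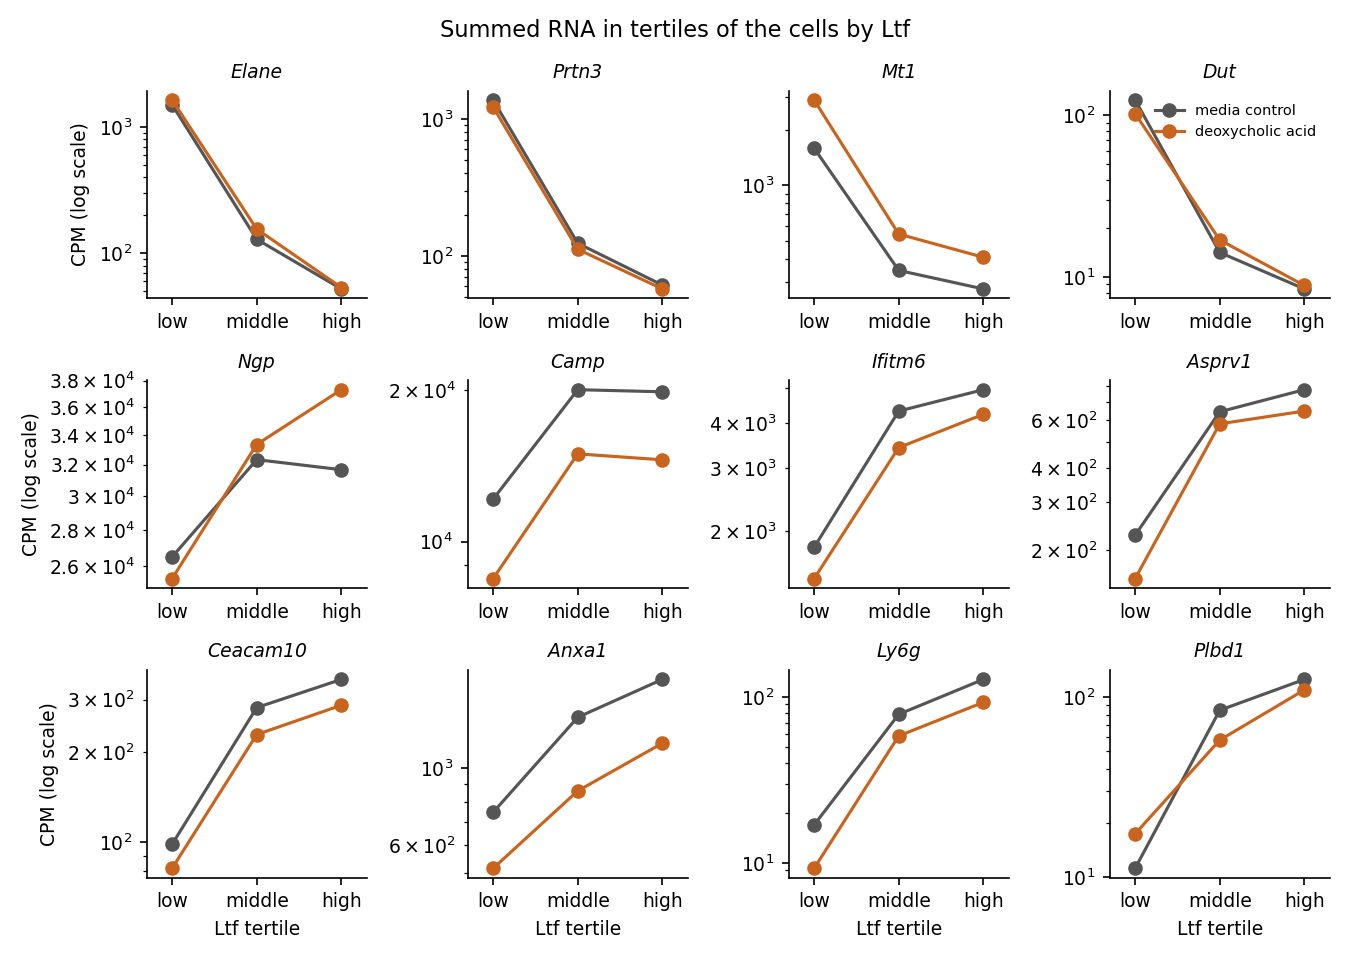
Summed expression (CPM, logarithmic axis, scaled separately in each panel) of 12 genes in the low, middle and high tertiles of non-cycling immature neutrophils by Ltf, in the media control (grey) and deoxycholic acid (orange) libraries; each point is a sum over the cells of 1 tertile. Elane, Prtn3, Mt1 and Dut are lower in the high tertile, and Ceacam10, Anxa1, Ly6g and Plbd1 higher, in both libraries, while Camp, Anxa1, Ifitm6 and Ceacam10 lie lower with deoxycholic acid in each tertile.

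The cells were placed differently along the Ltf range in the libraries. The low, middle and high tertiles held 36.8%, 34.7% and 28.6% of the media control cells and 29.7%, 31.9% and 38.4% of the deoxycholic acid cells. The high tertile thus held a share 1.34 times as large with deoxycholic acid, with an interval of 1.14 to 1.59, and 1.31 times when the tertiles were drawn after thinning each cell to 3000 UMIs (30.5% of 866 against 40.0% of 839 cells). Among cells with 8000 to 20000 UMIs, 27.3% (23.7% to 31.1%) of 582 and 29.6% (25.2% to 34.1%) of 423 were in the high tertile, a ratio of 1.08, and the low tertile held 36.4% and 41.6%. The placement therefore differed with all cells and did not differ beyond counting error within that depth range, where the median depths were 12355 and 10505 UMIs.

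The deoxycholic acid library was then compared with the media control by the ratio of summed CPM. A gene was counted as past the fold at a log2 ratio of at least 0.5 in either direction, among the 4175 genes that reached 20 CPM and 50 UMIs in the higher library. With deoxycholic acid 114 genes (2.73%) were higher and 95 (2.28%) lower past the fold; 2 were higher and 12 lower by at least 1. The middle of the distribution lay at a log2 ratio of 0.076, 62.8% of genes were above 0, and the central 95% ran from -0.48 to 0.51. Most genes thus differed by far less than the fold.

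Secondary granule genes had ratios on both sides of 0. Ltf was at 3874 CPM in the media control and 4564 CPM with deoxycholic acid, a log2 ratio of 0.24 (0.22 to 0.26) (values are given in this order below), Ngp at 29683 and 31748 CPM, a log2 ratio of 0.10 (0.089 to 0.10), and Camp at 16646 and 12433 CPM, a log2 ratio of -0.42 (-0.43 to -0.41). The sum of Ngp and Camp chose the cells, so their values are given as a description. Camp had log2 ratios of -0.53, -0.42 and -0.45 in the low, middle and high Ltf tertile and of -0.45 (-0.47 to -0.44) among cells with 8000 to 20000 UMIs. Median depths there were 12355 and 10505 UMIs, and 36.4% of 582 and 41.6% of 423 cells were in the low Ltf tertile. The range therefore did not match the libraries in depth. The part of depth and of place along Ltf in its ratios, here and below, was not tested. The Ltf ratio was -0.017 (-0.044 to 0.0094) in that depth range, and Ngp was 0.030 (0.021 to 0.040). Of 17 secondary granule genes with at least 5 CPM, 9 were higher and 8 lower with a median of 0.0033, none was higher past the fold and 2 were lower past it. Over all 7629 genes at that minimum 4706 were above 0, the median was 0.077, and 5.79% were higher and 3.53% lower past the fold.

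The 2 lower past the fold were Anxa1, which encodes an anti-inflammatory phospholipid-binding protein stored in neutrophil granules, and B2m, the light chain of class I molecules. Anxa1 was at 1222 and 841 CPM, a log2 ratio of -0.54 (-0.58 to -0.49). B2m was at 251 and 175 CPM, a log2 ratio of -0.52 (-0.61 to -0.42). Lyz2, lysozyme, was at 2579.9 and 2089 CPM, a log2 ratio of -0.30 (-0.33 to -0.28), and Olfm4 at 128 and 101 CPM, a log2 ratio of -0.34 (-0.47 to -0.21). On the higher side were Chil3 at 9615 and 10969 CPM, a log2 ratio of 0.19 (0.18 to 0.20), Chil1 at 100.3 and 127 CPM, a log2 ratio of 0.34 (0.21 to 0.47), Fcnb, ficolin B, at 305 and 361 CPM, a log2 ratio of 0.24 (0.17 to 0.32), and Cd177 at 741 and 865 CPM, a log2 ratio of 0.22 (0.18 to 0.27). Lcn2 (-0.050) and Mmp8, neutrophil collagenase (0.0033), were close to level.

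Of the membrane and secreted genes that mark immature neutrophils, 13 of 18 were below 0 (median -0.12). Over all 7629 genes with at least 5 CPM, 2923 were below 0 with a median of 0.077, and 3.53% were lower past the fold. Their median ran from -0.19 to 0.0018 across the settings tried. These genes were short, with a median transcript length of 1483 bases beside 3383 over all genes with at least 5 CPM. Ifitm6 was at 3409 and 2979 CPM, a log2 ratio of -0.19 (-0.22 to -0.17), Asprv1 at 500.5 and 449 CPM, a log2 ratio of -0.16 (-0.22 to -0.092) and Ceacam10 at 221 and 195 CPM, a log2 ratio of -0.18 (-0.28 to -0.087). Mgst1, a microsomal glutathione transferase, was the 1 gene past the fold over all cells, at 284 and 198 CPM, a log2 ratio of -0.52 (-0.61 to -0.43). Among cells with 8000 to 20000 UMIs, a range that did not match the libraries in depth, the ratios of the named markers were further from 0. They were -0.45 (-0.49 to -0.42) for Ifitm6, -0.56 (-0.64 to -0.47) for Asprv1, which is past the fold there, and -0.48 (-0.61 to -0.35) for Ceacam10. Wfdc21, a whey-acidic-protein domain inhibitor, went the other way at 4711 and 5317 CPM, a log2 ratio of 0.17 (0.16 to 0.19).

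Primary granule genes, RNA of the preceding stage, differed in both directions: 5 of 12 were higher and 7 lower, none past the fold, with a median of -0.090. Prtn3 was at 643 and 502 CPM, a log2 ratio of -0.36 (-0.41 to -0.30), Ctsg at 246 and 194 CPM, a log2 ratio of -0.34 (-0.43 to -0.24) and Elane at 696 and 666 CPM, a log2 ratio of -0.065 (-0.12 to -0.012), while Mpo was at 71.1 and 85.2 CPM, a log2 ratio of 0.26 (0.10 to 0.42). Within the Ltf tertiles, from low to high, Elane was above 0 in each, at 0.12, 0.27 and 0.038, Prtn3 was nearer 0 than over all cells, at -0.17, -0.15 and -0.093, and Ctsg was at -0.19, 0.22 and -0.10. Within 8000 to 20000 UMIs the log2 ratio was 0.65 (0.59 to 0.72) for Elane and 0.99 (0.77 to 1.20) for Mpo, and the median of the list was 0.30. The low Ltf tertile, where Elane RNA was highest, held 36.4% and 41.6% of the cells of that range. Its part in these ratios was not tested.

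Late neutrophil genes, some of which the rule caps, gave 10 higher and 8 lower of 18 with a median of 0.080. Wfdc17, a small secreted inhibitor, was at 45.96 and 24.6 CPM, a log2 ratio of -0.90 (-1.16 to -0.65), and S100a11 at 1862 and 1387 CPM, a log2 ratio of -0.42 (-0.46 to -0.39). Cxcr2, the chemokine receptor that draws neutrophils out of marrow and a gene of the rule, was at 41.6 and 55.96 CPM, a log2 ratio of 0.43 (0.23 to 0.63). Il1b, the interleukin 1 beta gene, was low in both at 10.1 and 6.52 CPM.

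S100a8 and S100a9, the subunits of calprotectin, the zinc- and calcium-binding protein of neutrophil cytosol, together made up 29.3% and 27.8% of all UMIs in these cells. S100a8 was higher with deoxycholic acid (log2 ratio 0.17 (0.16 to 0.17)) and S100a9 lower (-0.32 (-0.32 to -0.32)), so that S100a8 UMIs were 0.835 times S100a9 UMIs in the media control and 1.17 times with deoxycholic acid. The directions were the same in the 3 Ltf tertiles (0.090, 0.20 and 0.12 for S100a8, -0.39, -0.29 and -0.32 for S100a9). S100a6 (-0.065), S100a10 (-0.37), S100a4 (-0.39) and S100a11 (-0.42) were all below 0, and the 6 genes had a median of -0.35, or -0.15 once the trend of ratios on transcript length described at the end was taken out. Of 6 stefin A genes, cysteine protease inhibitors with near-identical copies whose reads may be shared, 5 were below 0 with a median of -0.13. That median ran from -0.26 to 0.16 across the settings tried, and the 4 genes with a known length had a median of 445 bases.

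Among the listed transcription factors of the lineage, Cebpb and the sparse Gfi1 had the ratios furthest from 0. Cebpb, which encodes the C/EBP factor of emergency granulopoiesis, was at 239 and 129 CPM, a log2 ratio of -0.89 (-0.996 to -0.78). It was lower in each Ltf tertile (-1.03, -0.82 and -0.71), and after thinning to 3000 UMIs it was detected in 49.1% (45.7% to 52.5%) of media control and 30.6% (27.5% to 33.9%) of deoxycholic acid cells. Those shares were 80.4% and 57.2% before thinning; the basophil reference, which is not free of the gene, had 64.7% and 46.2%. Cebpe was level, at 327 and 319 CPM, a log2 ratio of -0.039 (-0.12 to 0.038), and so was Spi1, which encodes PU.1, at 354 and 357 CPM, a log2 ratio of 0.014 (-0.059 to 0.088). Cebpd was at 93.2 and 77.6 CPM, a log2 ratio of -0.27 (-0.42 to -0.11), and Gfi1, a repressor that promotes the neutrophil over the monocyte fate, was sparse at 15.2 and 8.01 CPM, a log2 ratio of -0.93 (-1.39 to -0.48). Rara, the retinoic acid receptor alpha gene, was at 24.4 and 35.5 CPM, a log2 ratio of 0.54 (0.28 to 0.79). Of the 7 C/EBP-type genes, 3 were higher and 4 lower; Irf8 and Irf4, factors of monocytes and dendritic cells, had no UMI in either library.

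Most glycolysis genes were higher, few of them past the fold. Of 18, 16 were above 0 with a median of 0.27, beside 4706 of all 7629 genes and a median of 0.077. Past the fold 2 of the 18 were higher and none lower, beside 5.79% and 3.53% of all genes. Hk2, the inducible hexokinase, was at 67.8 and 112 CPM, a log2 ratio of 0.73 (0.58 to 0.88), and Pfkl, a phosphofructokinase, at 29.1 and 41.7 CPM, a log2 ratio of 0.52 (0.28 to 0.76). Eno1, enolase, was at 367 and 489.5 CPM, a log2 ratio of 0.41 (0.35 to 0.48), Slc2a3, a glucose transporter, at 165 and 230.4 CPM, a log2 ratio of 0.48 (0.38 to 0.58), Pfkp at 42.8 and 59.8 CPM, a log2 ratio of 0.48 (0.29 to 0.68) and Slc16a3, a lactate exporter, at 85.1 and 114 CPM, a log2 ratio of 0.42 (0.28 to 0.56). Gpi1, Aldoa, Pkm and Tpi1 lay between 0.26 and 0.27. Gapdh was level, at 2159.6 and 2151 CPM, a log2 ratio of -0.0056 (-0.035 to 0.024), and Hk3, the hexokinase of myeloid cells, was lower at 47.8 and 37.5 CPM, a log2 ratio of -0.35 (-0.57 to -0.13).

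Genes induced by low oxygen overlapped with this direction: 14 of 15 were above 0 with a median of 0.31. Past the fold 2 were higher and none lower, beside 5.79% and 3.53% of all 7629 genes. The median was 0.18 when Ngp and Camp had to reach 300 and 0.59 with a mitotic sum under 1. Bnip3, a mitophagy receptor, was at 97.3 and 159 CPM, a log2 ratio of 0.71 (0.59 to 0.84), and Pdk1, which holds pyruvate out of mitochondria, at 22.02 and 32.7 CPM, a log2 ratio of 0.57 (0.30 to 0.84). Egln3, a prolyl hydroxylase that marks HIF for decay, was at 59.9 and 84.1 CPM, a log2 ratio of 0.49 (0.33 to 0.66), Ero1l, an oxidase of the endoplasmic reticulum, at 175 and 229 CPM, a log2 ratio of 0.39 (0.29 to 0.49), and Hif1a itself at 43.5 and 58.5 CPM, a log2 ratio of 0.43 (0.23 to 0.62). Bnip3l was at 347 and 374 CPM, a log2 ratio of 0.11 (0.035 to 0.18), and Vegfa at 14.00 and 14.7 CPM with 0.067 (-0.31 to 0.44). In the depth range of 8000 to 20000 UMIs Hk2 had a log2 ratio of 0.78 (0.61 to 0.95) and Bnip3 of 0.77 (0.63 to 0.91). Bnip3 was detected in 17.2% and 24.7% and Hk2 in 16.6% and 22.9% of cells thinned to 3000 UMIs; the basophil reference had 3.45% and 15.4% for Bnip3 and 50.9% and 60% for Hk2.

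Subunits of the respiratory chain encoded in the nucleus were mostly lower, with 15 of 20 below 0, 2 of them past the fold, and a median of -0.18. Beside this list and those below, 2923 of all 7629 genes with at least 5 CPM were below 0, and 3.53% were lower past the fold. Sdhd, the membrane anchor of succinate dehydrogenase, was at 23.1 and 9.92 CPM, a log2 ratio of -1.22 (-1.62 to -0.84), and Cycs, cytochrome c, at 154 and 105 CPM, a log2 ratio of -0.56 (-0.68 to -0.43). Of 12 mitochondrially encoded genes 6 were higher and 6 lower, with a median of 0.054; mt-Atp8 (0.50) and mt-Nd3 (0.49) were the highest and mt-Co2 (-0.29) the lowest. The share of mitochondrial UMIs per cell was alike, with medians of 1.56% and 1.58%. Cytosolic ribosomal protein genes were lower in 17 of 21 cases with a median of -0.13, from -0.48 for Rps3 to 0.32 for Rpl41, and 15 of 19 mitochondrial ribosomal protein genes were below 0 with a median of -0.10. These 3 lists of short genes moved with transcript length: with the trend on length taken out, the medians were -0.012 for the respiratory chain, -0.028 for cytosolic and 0.096 for mitochondrial ribosomal proteins.

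Immediate early genes, which cells switch on soon after a stimulus, were higher in 13 of 16 cases (median 0.26), with 5 higher and 1 lower past the fold. Of all 7629 genes with at least 5 CPM, 4706 were above 0, and 5.79% were higher and 3.53% lower past the fold. Jun was at 387 and 533 CPM, a log2 ratio of 0.46 (0.40 to 0.53), Fosb at 23.1 and 40.5 CPM, a log2 ratio of 0.81 (0.55 to 1.06), Egr1 at 13.2 and 22.96 CPM, a log2 ratio of 0.80 (0.46 to 1.14), Atf3 at 8.72 and 14.9 CPM, a log2 ratio of 0.78 (0.36 to 1.20) and Dusp1, a phosphatase that shuts off MAP kinases, at 67.1 and 99.4 CPM, a log2 ratio of 0.57 (0.41 to 0.72). Fos was at 113 and 132 CPM, a log2 ratio of 0.22 (0.10 to 0.35). Zfp36, which encodes an mRNA-destabilising protein, went against the list at 52.2 and 35.9 CPM, a log2 ratio of -0.54 (-0.76 to -0.33). Jun was 0.32 (0.24 to 0.40) and the list's median 0.12 in the depth range of 8000 to 20000 UMIs, and Fosb was 0.59 (0.26 to 0.91).

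Inflammatory genes went in both directions. Tnfaip2, a gene induced by tumour necrosis factor, was at 160.0 and 264 CPM, a log2 ratio of 0.72 (0.63 to 0.82), and it was higher in each Ltf tertile (0.83, 0.67 and 0.66). Nfkbiz, an atypical inhibitor of NF-kappaB, was at 45.9 and 66.3 CPM, a log2 ratio of 0.53 (0.34 to 0.72). Sod2, mitochondrial superoxide dismutase, was lower at 40.9 and 24.99 CPM, a log2 ratio of -0.71 (-0.97 to -0.45), as were Ccl3, a chemokine, at 53.6 and 33.7 CPM, a log2 ratio of -0.67 (-0.89 to -0.45) and Nfkbia, the classical inhibitor, at 379.7 and 319 CPM, a log2 ratio of -0.25 (-0.33 to -0.18). Of 12 listed genes with enough counts, 6 were higher and 6 lower, with 3 past the fold each way. Over all 7629 genes with at least 5 CPM, 5.79% were higher and 3.53% lower past the fold. Ccl4, another chemokine, had 54 and 82 UMIs, or 5.48 and 11.1 CPM. Its order along Ltf was opposite in the libraries. From low to high tertile it was at 7.15, 6.62 and 1.21 CPM without and 1.48, 3.21 and 28.6 CPM with deoxycholic acid. How these few UMIs were spread over the cells is not given here.

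Metallothioneins, small metal-binding proteins, were higher in both measured forms. Mt1 was at 857 and 1361 CPM, a log2 ratio of 0.67 (0.63 to 0.71), and Mt2 at 61.2 and 95.2 CPM, a log2 ratio of 0.64 (0.48 to 0.80). Mt1 RNA was concentrated in the low Ltf tertile of both libraries, at 1589, 345 and 274 CPM without and 2899, 543 and 406 CPM with deoxycholic acid from low to high, and was higher with deoxycholic acid in each tertile. In the depth range of 8000 to 20000 UMIs its log2 ratio was 0.97 (0.92 to 1.02). Of the 20 antioxidant and iron genes, metallothioneins included, 9 were higher and 11 lower, 2 past the fold each way, with a median of -0.020. The shares past the fold over all 7629 genes with at least 5 CPM were 5.79% higher and 3.53% lower. Txn1, thioredoxin, was at 813 and 562 CPM, a log2 ratio of -0.53 (-0.59 to -0.48), Prdx1, a peroxiredoxin, at 67.9 and 47.8 CPM, a log2 ratio of -0.51 (-0.70 to -0.32), and the ferritin genes Fth1 and Ftl1 had log2 ratios of 0.12 and -0.088. Slc7a11, a cystine transporter, at 0.31 (0.13 to 0.50), Cat, catalase, at 0.31 (0.034 to 0.59), and Sod1, cytosolic superoxide dismutase, at 0.26 (0.13 to 0.40), were higher.

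Receptors and adhesion molecules differed by varied amounts. The beta 2 integrin gene Itgb2 was at 223 and 264 CPM, a log2 ratio of 0.24 (0.16 to 0.33), its partner Itgal at 61.9 and 87.9 CPM, a log2 ratio of 0.51 (0.34 to 0.67) and Itgam, the partner in the complement receptor, at 325 and 326 CPM, a log2 ratio of 0.0030 (-0.074 to 0.080). The tetraspanin gene Cd9 was at 144 and 102 CPM, a log2 ratio of -0.50 (-0.63 to -0.37). All 7 growth factor receptor genes with at least 5 CPM were above 0, with a median of 0.13 beside 0.077 over all genes at that minimum, of which 4706 of 7629 were above 0. The largest ratio among them was that of Kit, the stem cell factor receptor, which also stands on the stem and early progenitor list above: it had 46 and 83 UMIs, or 4.67 and 11.3 CPM, a log2 ratio of 1.27 (0.74 to 1.83), and its ratios in the low, middle and high Ltf tertile were 1.69, 1.20 and 0.20. Csf3r, the receptor for G-CSF, was at 36.4 and 42.1 CPM, a log2 ratio of 0.21 (-0.015 to 0.43), and Csf2rb, the common beta chain, at 103 and 129.7 CPM, a log2 ratio of 0.33 (0.20 to 0.46). Cyba, a subunit of the NADPH oxidase, which makes the respiratory burst, was at 2372 and 2178 CPM, a log2 ratio of -0.12 (-0.15 to -0.094).

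Genes of the cell cycle were low in both libraries by choice of the cells. Of 15 S phase genes 6 were higher, none past the fold, and 9 lower, 3 past it, with a median of -0.14: Pcna, the replication clamp, was at 72.7 and 48.6 CPM, a log2 ratio of -0.58 (-0.77 to -0.40), and Mcm2, of the replicative helicase, at 17.1 and 12.1 CPM, a log2 ratio of -0.50 (-0.89 to -0.13). Of 9 G2 and M phase genes with at least 5 CPM, 4 were higher and 5 lower, 2 of them past the fold, with a median of -0.041. Beside both lists, 5.79% of all 7629 genes at that minimum were higher and 3.53% lower past the fold. Hmgb2, a chromatin protein of dividing cells and the most abundant of them, was higher at 1304 and 1569 CPM, a log2 ratio of 0.27 (0.23 to 0.30), as was Ccnb2, cyclin B2, at 43.7 and 52.3 CPM, a log2 ratio of 0.26 (0.056 to 0.46). H2afz, a histone variant, was at 1035 and 767 CPM, a log2 ratio of -0.43 (-0.48 to -0.39), and Tuba1b, an alpha tubulin, at 66.2 and 42.2 CPM, a log2 ratio of -0.65 (-0.85 to -0.45). Cdkn2d, a CDK4 inhibitor, was at 81.5 and 57.9 CPM, a log2 ratio of -0.49 (-0.67 to -0.32). Rb1, the retinoblastoma gene, was higher at 27.3 and 43.6 CPM, a log2 ratio of 0.68 (0.44 to 0.92). Bcl2 family genes went in both directions: of 11 with at least 5 CPM, 6 were higher and 5 lower, 1 past the fold each way, with a median of 0.16. The highest of the 11 was Bcl2l11, which encodes the pro-apoptotic protein Bim, at 25.8 and 38.3 CPM, a log2 ratio of 0.57 (0.32 to 0.82).

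Interferon response, unfolded protein response, heat shock and cholesterol genes held at most 2 members past the fold in each list. Among all 7629 genes with at least 5 CPM, 5.79% were higher and 3.53% lower past the fold. Of 11 interferon response genes 2 were higher past it, a larger share than among all genes. Both were sparse: Irf7 at 6.19 and 9.64 CPM and Stat2 at 9.44 and 14.1 CPM. Of 17 unfolded protein response genes 1 was past it each way, Trib3, a pseudokinase of the stress response, at 5.68 and 10.6 CPM and Sdf2l1, an endoplasmic reticulum chaperone partner, at 60.4 and 31.9 CPM; Hspa5, the chaperone BiP, was level at 521 and 526 CPM, a log2 ratio of 0.015 (-0.046 to 0.075). The heat shock list had a median of 0.073 and the cholesterol list one of 0.21, with no gene past the fold in either.

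**Figure D3:**
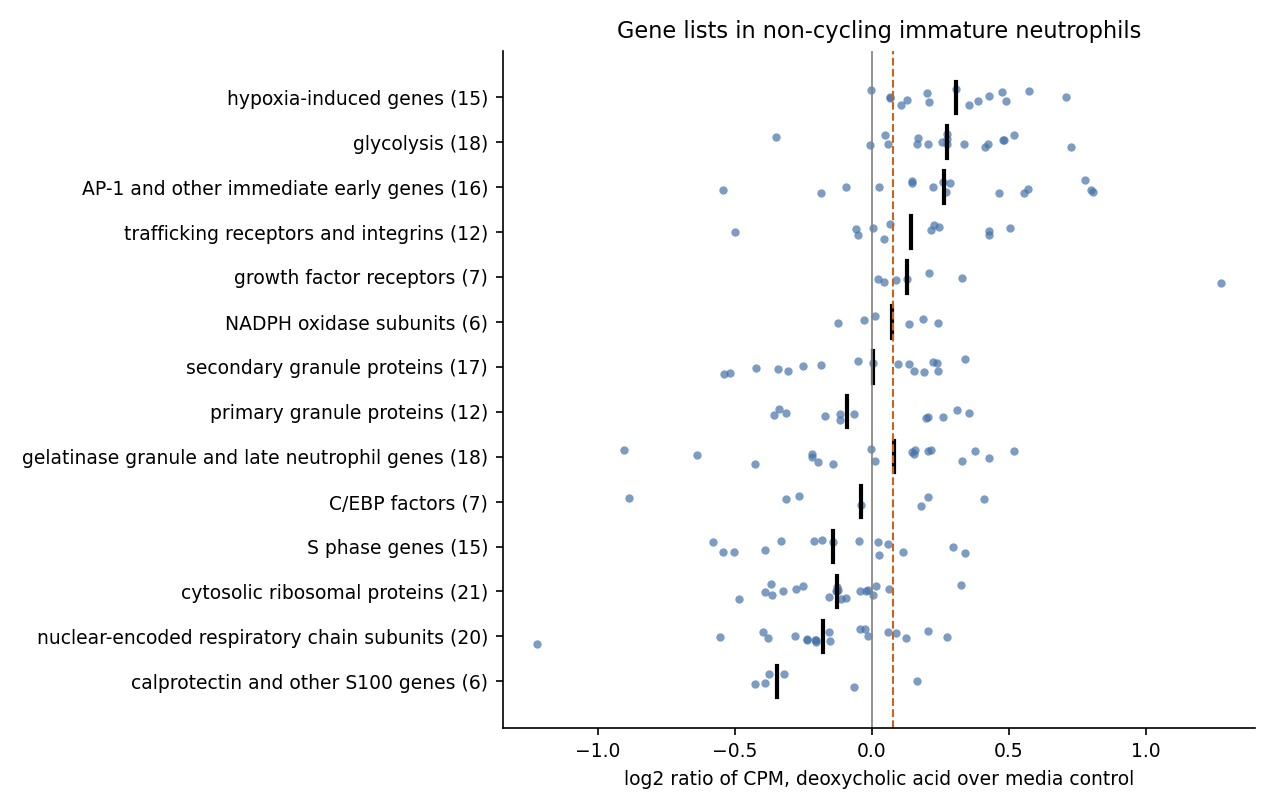
Log2 ratio of CPM, deoxycholic acid over media control, for the genes of 14 lists in the non-cycling immature neutrophils; each point is a gene with at least 5 CPM in either library, the number of them stands in parentheses, black bars are medians, and the dashed line is the median of 0.077 over all 7629 such genes. Hypoxia-induced, glycolysis and immediate early genes lie mostly right of the line, and respiratory chain, ribosomal protein and S100 genes mostly left of it.

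The 15 largest ratios each way were led by genes of several kinds. Gm10076 was highest at 325 and 673 CPM, a log2 ratio of 1.05 (0.99 to 1.11), but 82.2% of its 31-base words also occur in Rpl41, so the 2 genes cannot be told apart with certainty. Basp1, a membrane-bound adaptor, was at 9.94 and 20.1 CPM, a log2 ratio of 1.02 (0.64 to 1.40), and was detected in 1.73% and 3.46% of cells thinned to 3000 UMIs, fewer than in the basophil reference (7.76% and 9.23%). Dleu2, a long non-coding RNA that hosts microRNAs, was at 61.5 and 115 CPM, a log2 ratio of 0.91 (0.76 to 1.06), and Lars2, the mitochondrial leucyl-tRNA synthetase, at 604 and 1114 CPM, a log2 ratio of 0.88 (0.84 to 0.93). Gm42418, a locus that overlaps ribosomal RNA, was at 21531 and 35818 CPM, a log2 ratio of 0.73 (0.73 to 0.74). Pdcd4, an inhibitor of translation, was at 72.03 and 120.3 CPM, a log2 ratio of 0.74 (0.60 to 0.88), and Notch2, a Notch receptor, at 17.2 and 30.2 CPM, a log2 ratio of 0.81 (0.51 to 1.10). Sgms1, a sphingomyelin synthase, Gdpd3, a lysophospholipase D, Atp13a2, a lysosomal polyamine transporter, Ogfr, Zfp639 and Fam168a had log2 ratios from 0.73 to 0.81.

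The largest negative ratios belonged to Unc50, a Golgi membrane protein, at 21.5 and 8.42 CPM, a log2 ratio of -1.35 (-1.79 to -0.94), Sdhd, and Srsf9, a splicing factor, at 33.5 and 14.9 CPM, a log2 ratio of -1.16 (-1.49 to -0.85). Eloc, elongin C, of the complex by which VHL marks HIF for decay, was at 83.4 and 39.4 CPM, a log2 ratio of -1.08 (-1.28 to -0.89). Trem3, an activating receptor of myeloid cells, was at 136 and 71.04 CPM, a log2 ratio of -0.93 (-1.08 to -0.79). 1810037I17Rik was at 232 and 114 CPM, a log2 ratio of -1.03 (-1.14 to -0.91). Mrpl27, Sft2d1, Pdcl3, Churc1, Dynlt1f, Gm34680, Hacd2, Pfdn4 and Cdc26 had log2 ratios from -1.11 to -0.92. All 30 kept their sign under the other settings tried, and 24 stayed past the fold in each. The 30 were chosen as the extremes of these same cells and every setting re-uses the same 2 libraries, so these counts are a description.

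Other cells with granule RNA came from the same 2 libraries and are set beside these values without a test. They were 7309 cycling cells with the same granule RNA, a mitotic sum of at least 3 and late neutrophil RNA under the limit of 10, and 931 cells with granule RNA and late neutrophil RNA at or above that limit, called the late set here. The late set had no mitotic limit, so it can hold cycling cells. In the cycling cells 1.57% of 4536 genes were higher and 2.73% lower past the fold, and in the late set 3.78% and 3.92% of 4389. The Cebpb log2 ratio was -0.89 in the non-cycling immature neutrophils, -0.88 in the cycling cells and -0.81 in the late set. Hk2 was 0.73 in the non-cycling immature neutrophils, 0.76 in the cycling cells and 0.63 in the late set, and Tnfaip2 0.72 in the non-cycling immature neutrophils, 0.75 in the cycling cells and 0.65 in the late set. S100a9 was -0.32 in the non-cycling immature neutrophils, -0.25 in the cycling cells and -0.30 in the late set. These 4 genes lay on the same side of 0 in the 3 sets.

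The values of other genes lay further apart between the sets. Egr1 was 0.80 in the non-cycling immature neutrophils, 0.60 in the cycling cells and -0.52 in the late set, where its level in the media control, 33.99 CPM, was already above that with deoxycholic acid, 23.7 CPM. Cxcr2, which the rule and the late set use in opposite ways, was 0.43 in the non-cycling immature neutrophils, 0.014 in the cycling cells and -0.13 in the late set. Mt1 was 0.67 in the non-cycling immature neutrophils, 0.52 in the cycling cells and 0.18 in the late set, Atp13a2 0.73 in the non-cycling immature neutrophils, 0.37 in the cycling cells and -0.35 in the late set, and Mrpl27 -1.11 in the non-cycling immature neutrophils, -0.85 in the cycling cells and 0.41 in the late set. The intervals of Atp13a2 (-0.81 to 0.092) and Mrpl27 (-0.10 to 0.92) in the late set included 0, and none of these differences between sets was tested.

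**Figure D4:**
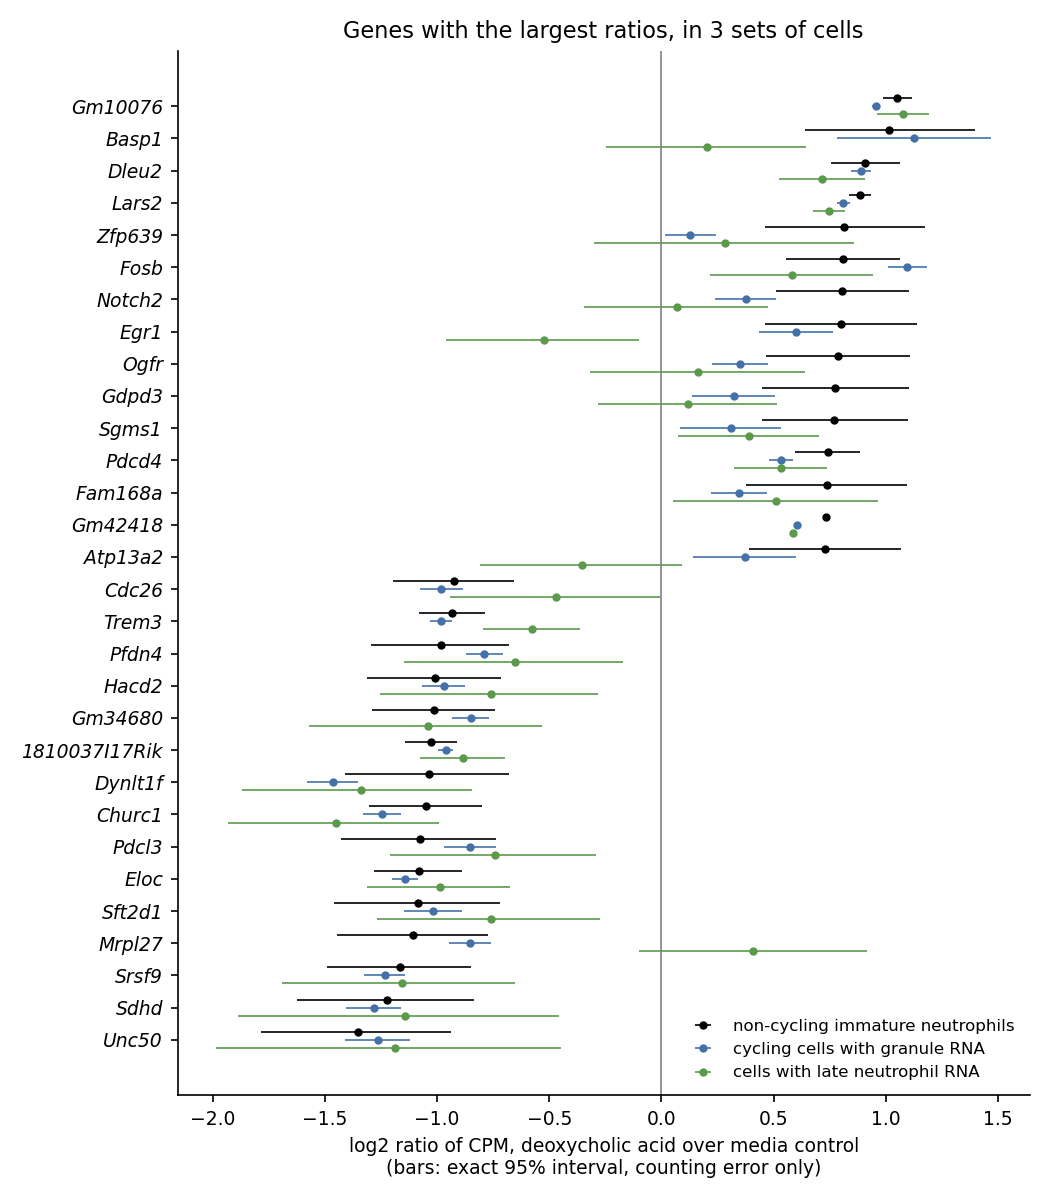
Log2 ratio of CPM, deoxycholic acid over media control, of the 30 genes with the 15 largest ratios each way in the non-cycling immature neutrophils (black), with the same genes in cycling cells with granule RNA (blue) and cells with late neutrophil RNA (green); bars are exact 95% intervals for counting error only. The genes were chosen on the black points, whose distance from 0 is therefore a description; Egr1, Atp13a2 and Mrpl27 change side in the late set.

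Transcript length and depth moved with the ratios. Across 4160 genes with a length in the reference annotation, longer genes had higher ratios (Spearman rho 0.382 across genes of the same 2 libraries, a description): the median log2 ratio was -0.11 in the shortest quintile and 0.17 in the longest. The S100, ribosomal protein and respiratory chain lists, with median lengths of 515, 1151 and 1758 bases, were short, and glycolysis and hypoxia-induced genes, with 3240 and 3451, were long. When the trend on length was taken out, the medians stayed at 0.28 for glycolysis and 0.31 for hypoxia-induced genes. With size factors in place of totals every log2 ratio was lower by 0.076, and 56 genes were higher and 146 lower past the fold, so the balance of higher and lower calls, 114 to 95 by totals, follows the scaling.

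**Figure D5:**
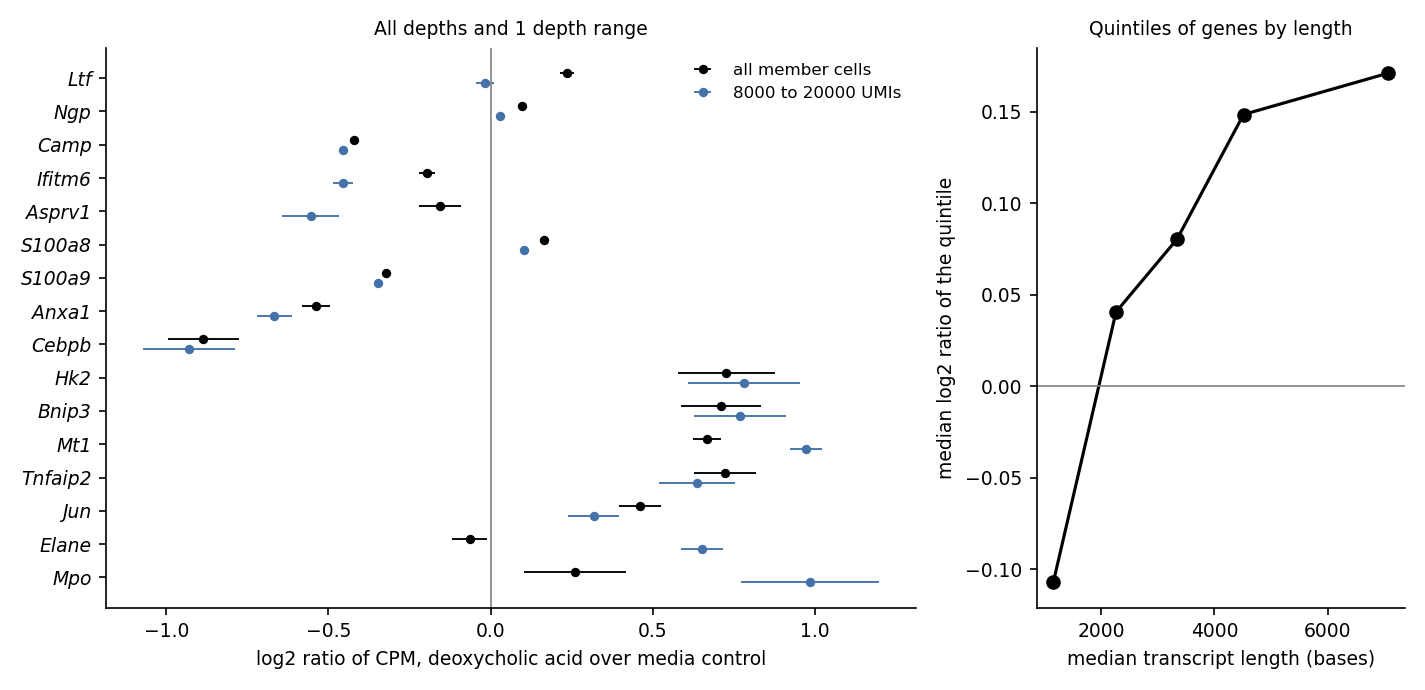
Left, log2 ratio of CPM, deoxycholic acid over media control, for 16 genes in the non-cycling immature neutrophils of all depths (black) and in those with 8000 to 20000 UMIs (blue), with exact 95% intervals for counting error only. Median depths in that range were 12355 UMIs in the media control and 10505 UMIs with deoxycholic acid. Right, median log2 ratio of quintiles of the measured genes by transcript length, against the median length of each quintile. Camp, Cebpb, Hk2, Bnip3 and Mt1 keep their side in the depth range, Ltf moves to -0.017 and Elane from -0.065 to 0.65; the quintiles run from -0.11 to 0.17.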

How the data were processed

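The labels' protocols describe droplet single-cell 3′ libraries (10x Genomics Chromium) aimed at 8000 cells per sample. The submitters' processing notes name Cell Ranger 6.0. No genome build or cell filter is stated in the sources used here. The authors deposited unnormalized whole-number UMI counts for 32285 genes (11246 without a UMI) in 17866 cells. Cell names give only the group, so each group was 1 library and the edgeR test planned for separate samples was not run. Cells with at least 300 genes and at most 10% mitochondrial UMIs were retained; depth is given in the report. Doublets were not removed: Scrublet (scanpy 1.11.5) with its automatic threshold marked 0.022% and 0.060% of cells, so it had not worked there, and removal of the highest 6% of scores is given as an alternative.

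UMIs of the chosen cells were summed per group and scaled to CPM. Ratios have exact binomial intervals of the UMIs between groups, sums exact Poisson intervals and shares exact Clopper-Pearson intervals; UMIs of 1 cell are not independent, so they cover counting error only. A 0 was set to 3 counts in a ratio. Genes named are the 6 markers, the 15 largest ratios each way, in each list the 4 with the highest mean CPM and the 2 with the largest ratio, and along Ltf the 10 each way; other list members were named after their values were seen. The members, lists and this rule were chosen with earlier results of these data known. Transcript lengths are the longest transcript per gene in GENCODE vM21, and promoters are from RefSeq. The ratio computation was tested on simulated data. Python 3.11.15, numpy 2.4.6, scipy 1.17.1 and pandas 2.3.3 were used.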

Additional observations from a re-analysis of the deposited data

How the results depend on the processing

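No difference between the libraries has a replicate check, and the depth of the deoxycholic acid library is the lower one, so sparse genes (under 20 CPM) have wide intervals. The share ratio of the cells was 0.941 when the rule was applied after thinning to 5000 UMIs and between that and 1.05 in all 9 alternatives. The share ratio of the high Ltf tertile was 1.08 in cells with 8000 to 20000 UMIs and between 1.31 and 1.53 in the other 10. The 114 genes higher past the fold became 240 with a mitotic sum under 1, 56 with size factors, 204 with 8000 to 20000 UMIs, 1500 with no minimum, 23 at 100 CPM or more and 2 at a fold limit of 1. The 95 lower became 200 with the thinned rule, 146 with size factors, 1130 with no minimum, 24 at 100 CPM or more, 12 at a fold limit of 1 and 144 with CPM computed without S100a8 and S100a9, an alternative added after seeing the data, as were the length trend and the thinned Ltf tertiles. The secondary granule median was 0.076 with a mitotic sum under 6, -0.072 with size factors and -0.10 with 8000 to 20000 UMIs, so it has no stable sign. The immediate early median was 0.36 with a mitotic sum under 6 and 0.12 with 8000 to 20000 UMIs. The glycolysis median was 0.36 with a mitotic sum under 1 and 0.20 with size factors, and the hypoxia median 0.59 with a mitotic sum under 1 and, at its lowest, 0.18 with Ngp and Camp at 300 or more. Fewer genes or cells enter under the stricter minimum, fold and rule limits; otherwise the cause was not tested. No paired analysis was possible because the columns carry no sample numbers.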
